A study of Mus musculus with 6 samples.

Results

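Neurotransmitter-gated receptor subunits are the genes of the ion channels that open when acetylcholine, GABA, glycine, glutamate or serotonin binds. Their members were all array probes whose annotated symbol starts with Chrn, Gabr, Glra, Glrb, Gria, Grik, Grin, Grid or Htr3, whatever their values. The rule caught 102 of the 46619 probes in the deposited table, for 57 symbols. Of these, Grina, Grid2ip and Grin1os encode no receptor subunit, which leaves 99 probes for 54 subunit genes. The samples were mTECs, the epithelial cells of the thymic medulla, with high surface MHC class II, from Aire knockout and wild-type mice, with 3 arrays each. All 6 samples were of strain C57Bl/6. The labels used here do not state the Aire allele, the age of the mice, the full gates or any pooling. They also do not say whether each replicate is a separate animal, so p-values measure only the spread among these samples. Knockout replicate 1 and wild-type replicates 1 and 2 were on beadchip 1, and knockout replicates 2 and 3 and wild-type replicate 3 on beadchip 2. Knockout replicate 2 and wild-type replicates 1 and 3 were female and the other 3 samples male, and only wild-type replicates 1 and 2 carry the earlier date label. Both sexes occur in each genotype, so the replicates of a genotype cannot all come from 1 animal. Since each beadchip holds 1 array of one genotype and 2 of the other, changes within a beadchip are given as sizes, and a call lost there is not read as a weaker effect.

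Each functional receptor is a ring of subunits, 5 in the nicotinic, GABA-A, glycine and 5-HT3 families and 4 in the glutamate families, and the mix of subunits sets what the channel responds to. The nicotinic receptor of skeletal muscle holds the subunits encoded by Chrna1, Chrnb1 and Chrnd with either Chrng, in the fetus, or Chrne, in the adult. It is the target of autoantibodies in human myasthenia gravis, in which the thymus is often abnormal. mTECs transcribe genes of many peripheral tissues and show their products to developing T cells, and the regulator Aire is needed for many of those genes.

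Since the muscle receptor is the autoimmune target in this family and its subunits moved differently, the RefSeq windows (build GRCm38.p6, 250 bases before to 50 after the annotated start) of 4 of its genes are shown, with that of Chrnb2, the subunit whose probe rose by most in the knockout. Capitals mark CAGCTG, a core bound by the muscle regulators of the MyoD family, which reads the same on both strands. These regulators bind other forms of CANNTG too, which are not marked. The windows of Chrna1 and Chrnb1 also hold such a form, CAGGTG. The windows are chr2:73580289-73580588 (minus strand) for Chrna1, chr1:87205561-87205860 (plus strand) for Chrng, chr11:70619145-70619444 (minus strand) for Chrne, chr11:69795888-69796187 (minus strand) for Chrnb1 and chr3:89764583-89764882 (minus strand) for Chrnb2.
Chrna1: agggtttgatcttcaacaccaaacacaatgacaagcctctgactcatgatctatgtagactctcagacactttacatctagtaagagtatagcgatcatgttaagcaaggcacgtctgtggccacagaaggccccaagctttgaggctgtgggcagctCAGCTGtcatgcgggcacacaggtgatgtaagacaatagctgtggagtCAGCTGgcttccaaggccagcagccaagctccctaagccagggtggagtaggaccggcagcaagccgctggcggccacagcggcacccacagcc
Chrng: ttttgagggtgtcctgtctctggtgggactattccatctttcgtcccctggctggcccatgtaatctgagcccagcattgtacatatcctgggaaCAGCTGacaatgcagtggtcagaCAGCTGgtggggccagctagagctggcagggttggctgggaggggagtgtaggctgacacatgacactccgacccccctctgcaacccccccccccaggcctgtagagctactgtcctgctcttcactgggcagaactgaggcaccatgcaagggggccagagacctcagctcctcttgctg
Chrne: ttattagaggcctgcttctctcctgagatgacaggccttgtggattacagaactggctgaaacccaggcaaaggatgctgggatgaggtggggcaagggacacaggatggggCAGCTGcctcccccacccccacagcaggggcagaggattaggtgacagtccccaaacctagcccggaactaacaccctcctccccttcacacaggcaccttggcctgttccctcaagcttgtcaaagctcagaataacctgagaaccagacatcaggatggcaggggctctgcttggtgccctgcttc
Chrnb1: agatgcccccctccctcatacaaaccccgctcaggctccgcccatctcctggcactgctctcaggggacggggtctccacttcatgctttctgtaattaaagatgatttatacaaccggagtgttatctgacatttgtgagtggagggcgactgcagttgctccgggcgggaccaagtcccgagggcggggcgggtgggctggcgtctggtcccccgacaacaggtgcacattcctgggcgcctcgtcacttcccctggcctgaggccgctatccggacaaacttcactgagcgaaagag
Chrnb2: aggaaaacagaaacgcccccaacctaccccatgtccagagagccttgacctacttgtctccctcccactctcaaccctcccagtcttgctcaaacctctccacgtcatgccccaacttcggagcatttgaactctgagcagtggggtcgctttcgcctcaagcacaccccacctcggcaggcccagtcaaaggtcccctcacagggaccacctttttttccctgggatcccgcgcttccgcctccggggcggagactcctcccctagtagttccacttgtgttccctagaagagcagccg
CAGCTG stood 2 times in the windows of Chrna1 and Chrng and 1 time in that of Chrne, whereas those of Chrnb1 and Chrnb2 held no CAGCTG. Other forms of CANNTG were not counted. Of all 32851 windows in the RefSeq table, 16.3% held the core and 1.9% held it at least 2 times. A window was found for 41 of the 54 subunit genes, and 7 of their 46 windows (15.2%) held the core, a share close to that of all windows. A match is a description of these letters and not a binding site.

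Values are deposited normalized log2 units, so a difference of 1 is a 2-fold ratio if the scale is a plain log2. The processing notes do not state the transform, so all folds rest on that reading. A background level remains in the values, so folds of dim probes are compressed. A probe counted as above background on an array when it exceeded the mode of all values by 3 SD of the values below the mode, a bound of 6.8 on every array. Only probes above it on at least 3 of the 6 arrays were tested, which held for 19541 probes (41.9%). Of the receptor subunits 30 of 99 probes (30.3%) were tested, for 21 of 54 genes, and 17 of these probes lay above the bound on all 6 arrays. The 6 arrays had one distribution, with medians of 6.55, and correlated at 0.984 to 0.994 within a genotype and 0.909 to 0.935 between genotypes over the tested probes, where genes are not independent replicates. Aire itself fell, at 10.36, 10.30 and 10.01 in knockout mTECs against 13.54, 13.66 and 13.40 in wild-type mTECs (change −3.31, SE 0.12, limma adjusted p = 4.7e-08). All 11 mTEC marker genes with a probe were above background on at least 3 arrays.

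Subunit genes moved in both directions in the knockout. In limma's test, with Benjamini-Hochberg adjustment over all tested probes, 11 of the 30 tested subunit probes were higher in the knockout (36.7%, against 20.7% of all tested probes) and 9 were lower (30%, against 17.7%). Of all tested probes 38.4% passed in either direction. A probe that passes the background filter through its brighter group alone had to differ, so these shares say nothing of the 99 probes as a whole. Fitted without the filter, 13 of the 99 rose (13.1%, against 8.48% of all probes) and 17 fell (17.2%, against 8.56%), and the median change of the 99 was 0.00, against 0.04 for all probes. The median change of the 30 tested probes was 0.26, against 0.10 for all tested probes. By gene, 8 had a probe that rose, 7 had a probe that fell, none had both, and 6 tested genes had no probe that passed. By the brightest tested probe, 7 of the 21 tested subunit genes rose and 6 fell. Of all tested named genes 18.3% rose and 23.1% fell by that measure.

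**Figure D1:**
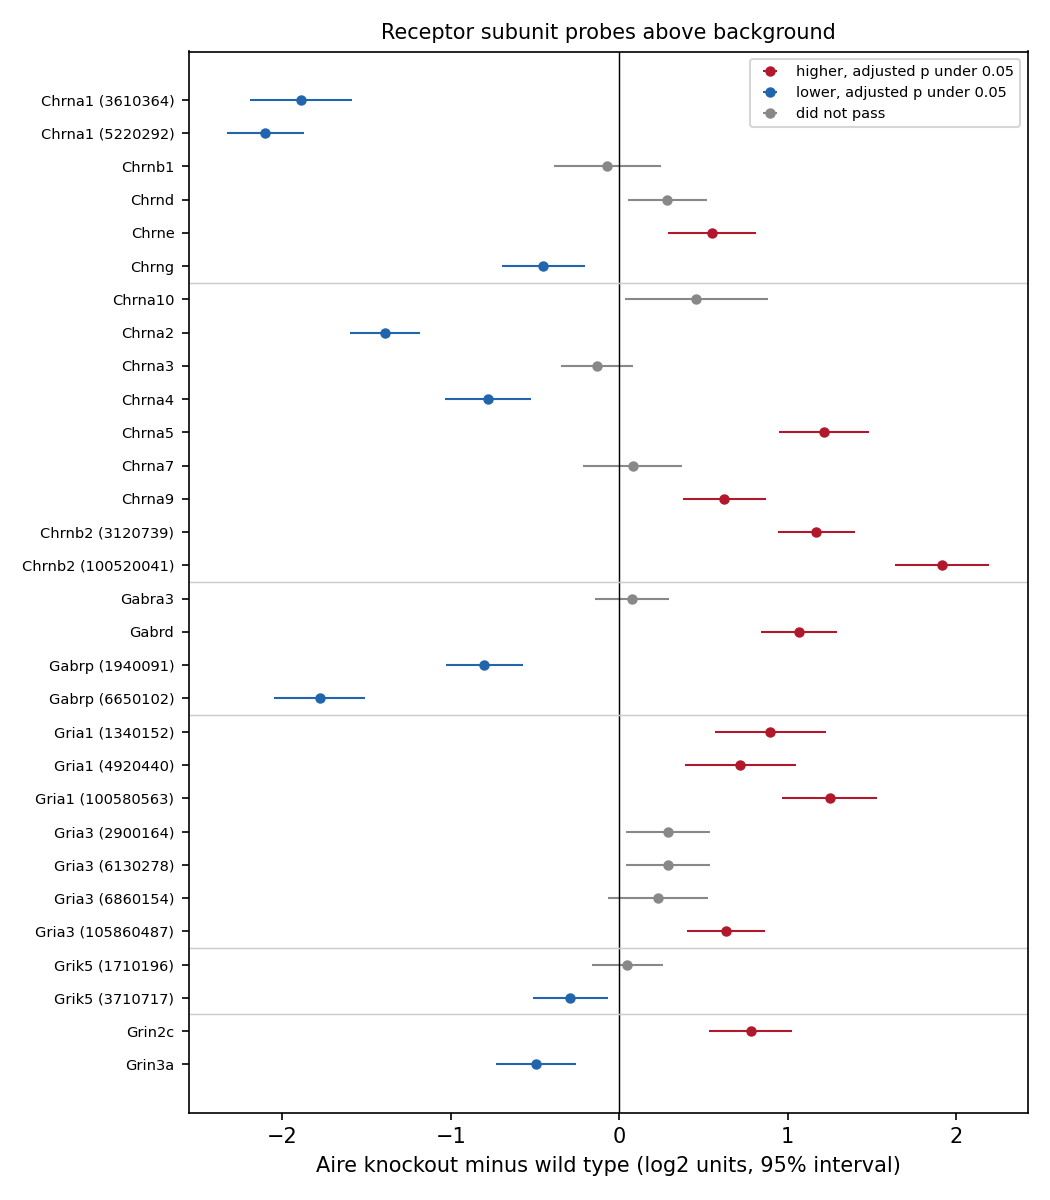
Change of each of the 30 tested subunit probes, as Aire knockout minus wild type in log2 units with its 95% interval from limma; grey lines part the families, in the order muscle nicotinic, neuronal-type nicotinic, GABA-A, AMPA, kainate and NMDA. The muscle subunit Chrna1 lies farthest left at −2.10 and the neuronal subunit Chrnb2 farthest right at 1.92, and only the AMPA family has no probe left of 0.

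Within the muscle nicotinic receptor the ligand-binding subunit Chrna1 fell most. Its probe 5220292 read 6.39, 6.45 and 6.29 in knockout mTECs, against 8.36, 8.57 and 8.50 in wild-type mTECs. The knockout values were all below the background bound and the wild-type values all above it. The means were 6.38 ± 0.08 in the knockout and 8.48 ± 0.11 in wild type (SD, n = 3 each), a change of −2.10 (SE 0.10, limma adjusted p = 2.78e-07). Set against the lowest signal above background on each knockout array, Chrna1 was at least 3.2-fold lower. Probe 3610364 of the same gene read 6.31, 6.65 and 6.16 in knockout mTECs against 8.15, 8.32 and 8.33 in wild-type mTECs (change −1.89, SE 0.14, adjusted p = 4.22e-06, at least 2.76-fold lower). Another Chrna1 probe (1170025) was above background on no array. The change of probe 5220292 was −2.08 within beadchip 1 and −2.13 within beadchip 2.

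The 2 alternative subunits moved in opposite directions. Chrng, the fetal subunit, read 8.24, 8.33 and 8.08 in knockout mTECs against 8.54, 8.76 and 8.71 in wild-type mTECs (change −0.45, SE 0.11, limma adjusted p = 0.00957). The other Chrng probe (102640717) was above background on no array. Chrne, the adult subunit, read 9.75, 9.58 and 9.47 in knockout mTECs against 8.94, 9.0 and 9.22 in wild-type mTECs (change 0.55, SE 0.12, adjusted p = 0.00484). The groups did not overlap for either gene, which was also the case for 52.8% of all tested probes. The call of Chrng ended when arrays were scaled to housekeeping genes (−0.31), where p-values followed the size of the change and not a probe's own spread. Its change was −0.49 with the date label as a covariate, −0.41 within beadchip 1 and −0.50 within beadchip 2. The change of Chrne was 0.38 with the date label as a covariate, 0.78 within beadchip 1 and 0.31 within beadchip 2.

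Chrnb1 and Chrnd, the remaining muscle subunits, did not pass the test with the settings described. Chrnb1 read 7.5, 7.20 and 7.5 in knockout mTECs against 7.39, 7.75 and 7.29 in wild-type mTECs, and the groups overlapped (change −0.07, 95% interval −0.39 to 0.25). The tested Chrnd probe (104760594) read 6.91, 7.18 and 7.16 in knockout mTECs against 6.77, 6.82 and 6.81 in wild-type mTECs (change 0.28, 95% interval 0.05 to 0.52, limma adjusted p = 0.057). It passed in 4 alternatives, namely normexp background correction (0.39, adjusted p = 0.0381), trended variance (adjusted p = 0.0363), probes averaged by gene (adjusted p = 0.0411) and without knockout replicate 1 (0.37, adjusted p = 0.0404). These wild-type values lay at the background bound, and 2 other Chrnd probes were above it on no array. Chrnd and Chrng are neighbours on chromosome 1 in the RefSeq annotation.

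Most tested markers of skeletal muscle fell, as did Chrna1. Of 20 listed muscle genes 18 had a probe and 14 were tested, of which 11 fell and 1 rose (median change −0.71), against 23.1% of all tested named genes lower and 18.3% higher by their brightest probe. Myh3, Myh8, Actn2, Tnnc2 and Ryr1 were above the bound on wild-type arrays alone, so they had to differ to be tested. Of the genes above it on all 6 arrays, Myf6, Ckm, Mylpf and Tnni2 fell, Des rose and Actn3 did not pass. Myh8, the perinatal myosin heavy chain, was at least 6.8-fold lower and Myh3, the embryonic one, at least 5.11-fold lower, both above background on no knockout array. Acta1, skeletal actin, changed by −1.71 (SE 0.16) and the troponin Tnnt3 by −1.15 (SE 0.11), while the intermediate filament gene Des rose by 0.94 (SE 0.12). The muscle regulator Myog read 6.97 ± 0.12 in the knockout and 6.86 ± 0.11 in wild type (SD, n = 3 each), near the bound in both, and Myod1 was not tested. The summed level of the list, with the brightest probe of each gene, ranged from 130.2 to 132.6 log2 units in knockout arrays and from 141.3 to 142.8 in wild-type arrays. The part of muscle-type cells in the Chrna1 result was not tested, and in these bulk samples fewer cells of a type cannot be told apart from less RNA per cell.

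**Figure D2:**
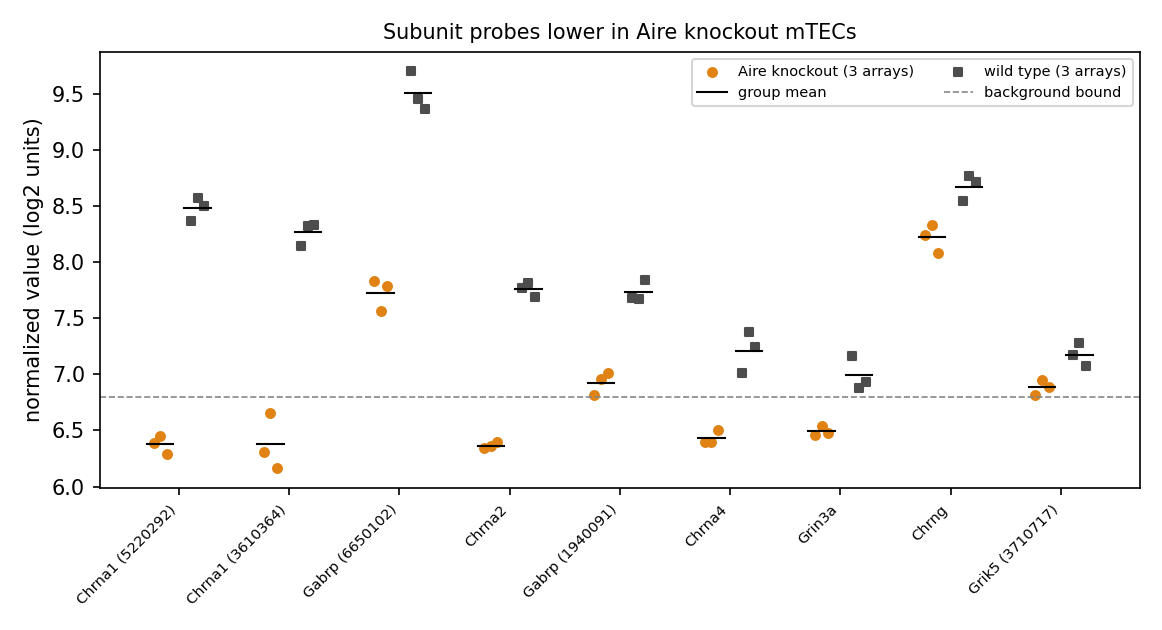
Normalized log2 value on each array for the 9 subunit probes that were lower in Aire knockout mTECs (circles, 3 arrays, left of each pair) than in wild-type mTECs (squares, 3 arrays), with group means as bars and the background bound dashed. For Chrna1, Chrna2, Chrna4 and Grin3a all knockout values lie under the bound of 6.8, whereas Chrng and Gabrp keep a signal above it.

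Among the neuronal-type nicotinic subunits, which form receptors of brain, ganglia and sensory cells, 3 genes had a probe that rose and 2 a probe that fell, of 8 tested. Of all tested named genes 18.3% rose and 23.1% fell by their brightest probe, so the share that fell is near that of all genes. Chrnb2, the beta subunit of the main brain receptor, rose by most. Its probe 100520041 read 8.72, 8.96 and 8.53 in knockout mTECs, against 6.91, 6.71 and 6.85 in wild-type mTECs. The wild-type values lay around the background bound, with 2 of 3 just above it. Group means of 8.74 ± 0.21 in the knockout and 6.82 ± 0.11 in wild type (SD, n = 3 each) gave a change of 1.92 (SE 0.12, limma adjusted p = 2.26e-06), or 3.77-fold. Probe 3120739 read 7.91, 8.02 and 7.75 in knockout mTECs against 6.71, 6.72 and 6.75 in wild-type mTECs, at least 2.14-fold higher (adjusted p = 1.73e-05). Another Chrnb2 probe (580204) was above background on 1 knockout array alone and was not tested. Within beadchips 1 and 2 the change of probe 100520041 was 1.91 and 1.90.

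The partner of Chrnb2 in that brain receptor, Chrna4, went the other way. Its probe 2680091 read 6.39, 6.40 and 6.50 in knockout mTECs, all under the bound, against 7.01, 7.38 and 7.25 in wild-type mTECs (change −0.78, SE 0.12, limma adjusted p = 0.000552, at least 1.33-fold lower). The change was −0.80 within either beadchip. Chrna2, another alpha subunit that pairs with Chrnb2, read 6.34, 6.36 and 6.39 in knockout mTECs against 7.77, 7.81 and 7.69 in wild-type mTECs. That is a change of −1.39 (SE 0.09, adjusted p = 2.5e-06) and at least 1.94-fold lower, with no knockout value above the bound.

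Chrna5, an accessory subunit that needs other alpha and beta subunits to form a receptor, read 10.53, 10.55 and 10.24 in knockout mTECs against 9.12, 9.37 and 9.18 in wild-type mTECs. It stood clear of the bound on every array and rose by 1.22 (SE 0.12, limma adjusted p = 3.88e-05), or 2.32-fold. Its neighbours on chromosome 9, Chrna3 and Chrnb4, did not follow it past the test. Chrna3, the alpha subunit of ganglionic receptors, read 6.97 ± 0.09 in knockout and 7.10 ± 0.04 in wild-type mTECs (SD, n = 3 each; change −0.13, 95% interval −0.34 to 0.08), and Chrnb4 was above background on no array.

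Chrna9 and Chrna10 form the receptor of cochlear hair cells. Chrna9 read 9.09, 9.33 and 9.15 in knockout mTECs against 8.67, 8.44 and 8.59 in wild-type mTECs, a rise of 0.62 (SE 0.11, limma adjusted p = 0.00163), with 0.54 within beadchip 1 and 0.65 within beadchip 2. Chrna10 read 10.33, 10.37 and 10.36 in knockout mTECs against 10.24, 9.39 and 10.06 in wild-type mTECs. Wild-type replicate 2 was the low array, and the change of 0.46 did not pass (95% interval 0.03 to 0.88, adjusted p = 0.081). Without that array the change was 0.21 (adjusted p = 0.181), and with the date label as a covariate it was 0.30. It passed without wild-type replicate 1 (0.63, adjusted p = 0.0204) and with sex as a covariate (0.59, adjusted p = 0.0257). With housekeeping scaling the change was 0.60. Chrna7, which forms receptors of a single subunit type, lay near the bound in both groups (change 0.08, 95% interval −0.22 to 0.37). Chrna6 and Chrnb3 were above background on no array.

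**Figure D3:**
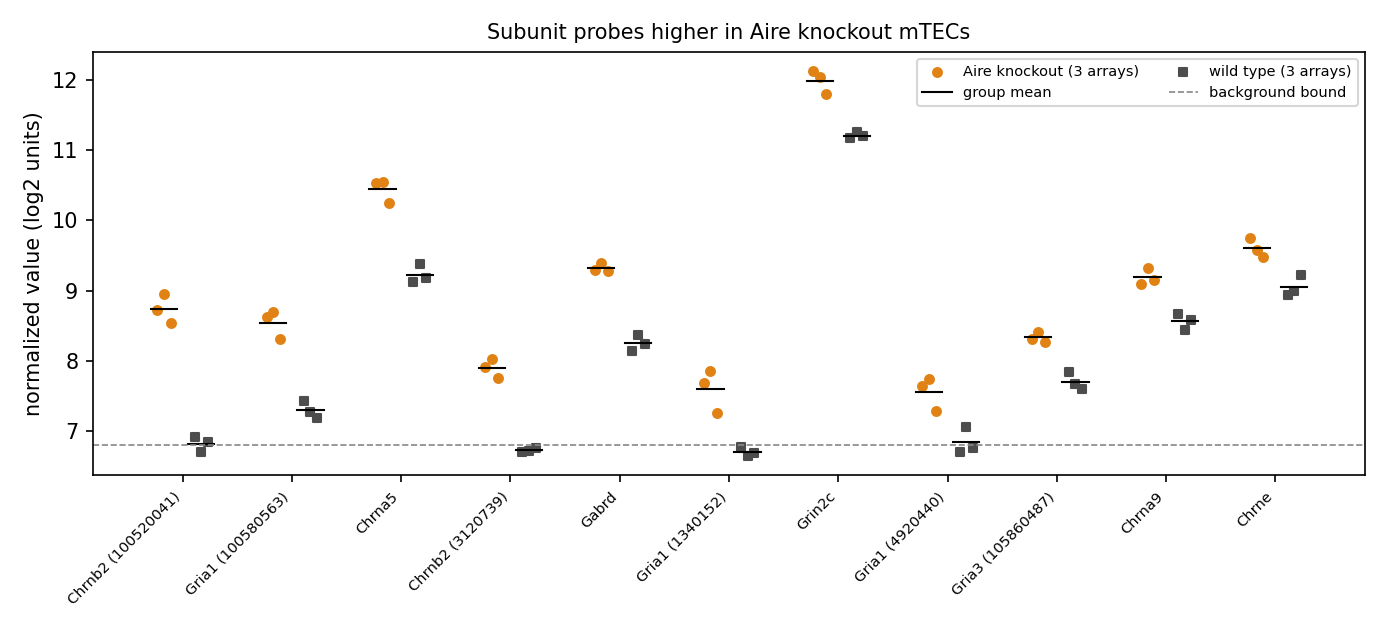
Normalized log2 value on each array for the 11 subunit probes that were higher in Aire knockout mTECs (circles, 3 arrays, left of each pair) than in wild-type mTECs (squares, 3 arrays), with group means as bars and the background bound dashed. Chrnb2 and the Gria1 probes 1340152 and 4920440 lie near or under the bound of 6.8 in wild type, whereas Chrna5, Gabrd, Grin2c, Chrna9 and Chrne are clear of it in both groups.

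GABA-A receptors are the main inhibitory channels of the brain, and 3 of their 16 genes were tested. Gabrp encodes the pi subunit, known from epithelia such as those of the reproductive tract and airways. Its probe 6650102 read 7.83, 7.56 and 7.79 in knockout mTECs against 9.70, 9.46 and 9.37 in wild-type mTECs, and the groups were far apart. The change was −1.78 (SE 0.12, limma adjusted p = 3.04e-06), or 3.43-fold lower, with both groups above background. Its other probe, 1940091, read 6.81, 6.96 and 7.01 in knockout mTECs against 7.68, 7.67 and 7.84 in wild-type mTECs (change −0.80, SE 0.10, adjusted p = 0.000225).

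Gabrd, the delta subunit of receptors outside synapses, read 9.29, 9.39 and 9.28 in knockout mTECs against 8.15, 8.38 and 8.23 in wild-type mTECs. The groups were apart on every array and the rise was 1.07 (SE 0.10, limma adjusted p = 2.93e-05), or 2.1-fold. Gabra3 lay at the bound in both groups, with 6.91 ± 0.10 in knockout and 6.84 ± 0.06 in wild-type mTECs (SD, n = 3 each; change 0.08, 95% interval −0.15 to 0.30). Of the other GABA-A genes with a probe, Gabrr1 alone was above the bound on any array, and none was tested.

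Both tested AMPA receptor genes, whose channels carry fast excitatory transmission, had a probe that rose. Of their 7 tested probes 4 rose (57.1%), against 20.7% of all tested probes. By its brightest probe Gria1 rose and Gria3 did not pass, against 18.3% of all tested named genes that rose by that measure. Gria1 had 3 tested probes, and all 3 passed. The brightest (100580563) read 8.62, 8.69 and 8.32 in knockout mTECs against 7.43, 7.27 and 7.18 in wild-type mTECs, a change of 1.25 (SE 0.12, limma adjusted p = 4.27e-05), or 2.38-fold. The other 2 changed by 0.90 (SE 0.15, adjusted p = 0.00106) and 0.72 (SE 0.15, adjusted p = 0.00373), with knockout replicate 3 the lowest knockout array on all 3 probes. Gria1 probe 3780750 was above background on no array.

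Of the 4 tested Gria3 probes 1 passed. That probe (105860487) read 8.32, 8.41 and 8.28 in knockout mTECs against 7.83, 7.67 and 7.59 in wild-type mTECs (change 0.63, SE 0.10, limma adjusted p = 0.00104), with 0.56 within beadchip 1 and 0.75 within beadchip 2. The other 3 Gria3 probes had changes of 0.29, 0.29 and 0.23, with adjusted p from 0.0641 to 0.198. With beadchip as a block probe 2900164 passed (0.34, adjusted p = 0.0482). Probe 6130278 passed with normexp background correction (0.398, adjusted p = 0.0498) and with trended variance (adjusted p = 0.0481). Each of the 3 passed in the fit without 1 of the arrays. Without knockout replicate 3 these were 2900164 (0.37, adjusted p = 0.04) and 6860154 (0.36, adjusted p = 0.0405). Without wild-type replicate 3 it was 6130278 (0.39, adjusted p = 0.0202). Averaged over its 4 probes Gria3 changed by 0.36 (adjusted p = 0.0103). Gria2, the subunit that makes AMPA receptors impermeable to calcium, and Gria4 were above background on no array.

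Of the NMDA receptor genes, whose channels need both glutamate and glycine or serine to open, Grin2c and Grin3a were tested. Grin2c, known from cerebellar granule cells, read 12.13, 12.04 and 11.80 in knockout mTECs against 11.17, 11.25 and 11.20 in wild-type mTECs. It was far above the bound on every array and rose by 0.78 (SE 0.11, limma adjusted p = 0.000412), or 1.72-fold, with 0.92 within beadchip 1 and 0.72 within beadchip 2. Grin3a, a modulatory subunit, read 6.46, 6.54 and 6.48 in knockout mTECs, all under the bound, against 7.16, 6.88 and 6.93 in wild-type mTECs (change −0.50, SE 0.11, adjusted p = 0.00492, at least 1.14-fold lower). Its call ended with housekeeping scaling (−0.35), where p-values followed the size of the change and not a probe's own spread. Its change was −0.44 with the date label as a covariate, −0.56 within beadchip 1 and −0.42 within beadchip 2. Grin2a, Grin2b, Grin2d and Grin3b were above background on no array.

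Kainate receptors were represented by Grik5 alone, a subunit that needs a partner such as Grik2 to form a channel. Its probe 3710717 read 6.82, 6.95 and 6.88 in knockout mTECs against 7.17, 7.28 and 7.08 in wild-type mTECs (change −0.29, SE 0.10, limma adjusted p = 0.0421). The call ended in 14 of 20 alternatives, of which the fits within a beadchip and with the date label are not read as a weaker effect. Among the rest it ended, at adjusted p from 0.0569 to 0.147, in the fits without any 1 array other than wild-type replicate 3. The other Grik5 probe read 7.12 ± 0.09 in the knockout and 7.08 ± 0.02 in wild type (SD, n = 3 each). Grik4 was above the bound on 1 array of each genotype and was not tested. Grik1, Grik2 and Grik3 were above background on no array.

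No glycine or 5-HT3 receptor subunit was tested. Htr3a and Glra2 were each above the bound on 1 wild-type array and Gabrr1 on 2 wild-type arrays, with no knockout array above it for any of these 3 genes. With Grik4, these are the 4 untested subunit genes with any probe above the bound, and the remaining 29 were above background on no array. Of the symbols caught by the rule that encode no subunit, Grin1os was not tested and the other two did not pass. Grina, a membrane protein named after an NMDA receptor-associated protein, read 13.61 ± 0.04 in the knockout and 13.49 ± 0.10 in wild type, and Grid2ip, a scaffold protein, read 7.91 ± 0.18 in the knockout and 7.78 ± 0.18 in wild type (SD, n = 3 each).

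A change of at least 1 log2 unit that passed the test was seen for 5 subunit probes higher in the knockout, of Chrnb2, Gria1, Chrna5 and Gabrd, and for 4 lower, of Chrna1, Gabrp and Chrna2. Among all tested probes such rises made up 1.71% and such falls 6.13%. Of the 9 probes that fell, 5 were above the bound on no knockout array, and of the 11 that rose, 2 were above it on no wild-type array.

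The numbers of CG pairs in the RefSeq windows overlapped between subunit genes that rose and those that fell. The windows of genes that rose held 1 to 25 CG pairs (median 9, 6 windows of 5 genes) and those of genes that fell 2 to 33 (median 7, 5 windows of 5 genes), against a median of 7 in all windows. Chrna1 and Chrng held 7 and 2, Chrne held 1, and Chrnb2 held 12. Of the 5 windows of genes that fell 3 held CAGCTG, as did 2 of the 6 of genes that rose, 0 of the 6 of tested genes that did not pass, and 2 of the 29 of untested genes. Of all windows 16.3% held it. No window was found for Chrna2 and Grin3a, which fell, or for Gria1, Gria3 and Gabrd, which rose. These counts rest on few windows, and a difference between the groups was not tested. The windows of tested genes that did not pass held 0 to 35 CG pairs, and the median over all 46 subunit windows was 10.5.

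Genes that make, store and remove the transmitters were compared with the same fit, 1 probe a gene. Of 18 listed genes 10 were tested, of which 5 fell and 3 rose, against 23.1% lower and 18.3% higher of all tested named genes. Tph2 and Slc18a3, which fell, were above the bound on wild-type arrays alone, so they had to differ to be tested. Slc17a6, the vesicular glutamate transporter of subcortical neurons, fell most, with 7.32 ± 0.08 in the knockout and 9.03 ± 0.05 in wild type (SD, n = 3 each; change −1.71, SE 0.10, limma adjusted p = 7.28e-07). The neuronal serotonin-synthesis enzyme Tph2 was at least 1.64-fold lower (adjusted p = 7.03e-06), and Slc32a1, which loads GABA and glycine into vesicles, changed by −1.18 (SE 0.10, adjusted p = 1.93e-05). Tph1, the serotonin-synthesis enzyme of peripheral tissues, rose by 0.66 (SE 0.20, adjusted p = 0.0234). The rest that passed, singled out after their values were seen, were the acetylcholine vesicle transporter Slc18a3 and the decarboxylase Ddc (−0.43 and −0.29), the acetylcholine-degrading enzyme Ache (0.44) and the serotonin transporter Slc6a4 (0.34). The count of 3 that rose was 1 with beadchip as a block and in the fits without knockout replicate 1, knockout replicate 2, wild-type replicate 2 or wild-type replicate 3.

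Of 42 listed genes whose proteins cluster, assist or fold these receptors 26 were tested, with 7 lower and 6 higher, which is near the 23.1% lower and 18.3% higher of all tested named genes. Rapsn, Tmem35a, Slurp1 and Cacng5, which fell, were above the bound on wild-type arrays alone, so they had to differ to be tested. Cbln4, a secreted protein of the synaptic cleft, rose by 2.16 (SE 0.13, limma adjusted p = 1.56e-06), whereas its relative Cbln1, which ties the delta glutamate receptor to presynaptic neurexin, changed by −1.35 (SE 0.12, adjusted p = 1.41e-05). Lynx1, a brake on nicotinic receptors, changed by −1.70 (SE 0.15, adjusted p = 1.71e-05). Cacng8, an auxiliary subunit of AMPA receptors, read 8.0, 8.16 and 7.71 in knockout mTECs against 6.81, 6.76 and 6.99 in wild-type mTECs (change 1.11, SE 0.13, adjusted p = 0.000136). Rapsn, which anchors the muscle nicotinic receptor and was singled out after its values were seen, read 6.33, 6.25 and 6.49 in knockout mTECs, under the bound, against 6.88, 6.91 and 6.91 in wild-type mTECs (adjusted p = 0.00211, at least 1.07-fold lower).

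Metabotropic receptors of the same transmitters, which signal through G proteins, fell in 5 of 8 tested cases and rose in 0 by limma's test, with 0 higher at an unadjusted p under 0.05, against 23.1% lower and 18.3% higher of all tested named genes. Of the 5 that fell, 4 were above the bound on wild-type arrays alone, so they had to differ to be tested. Grm4, a glutamate receptor of presynaptic endings, changed by −0.81 (SE 0.13, adjusted p = 0.000756) and stayed above the bound on all arrays. The serotonin receptors Htr1d, Htr2b and Htr5b were each above background on all 3 wild-type arrays and on no knockout array, at least 1.19-fold, 1.12-fold and 1.11-fold lower. Their wild-type means were 7.05, 6.96 and 6.95, so all 3 lay close to the bound. Chrm3, a muscarinic acetylcholine receptor singled out after its values were seen, changed by −0.51 (SE 0.12, adjusted p = 0.0104). Of the 3 genes of this list above the bound on all 6 arrays, Grm4 fell and Grm7 and Htr7 did not pass.

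**Figure D4:**
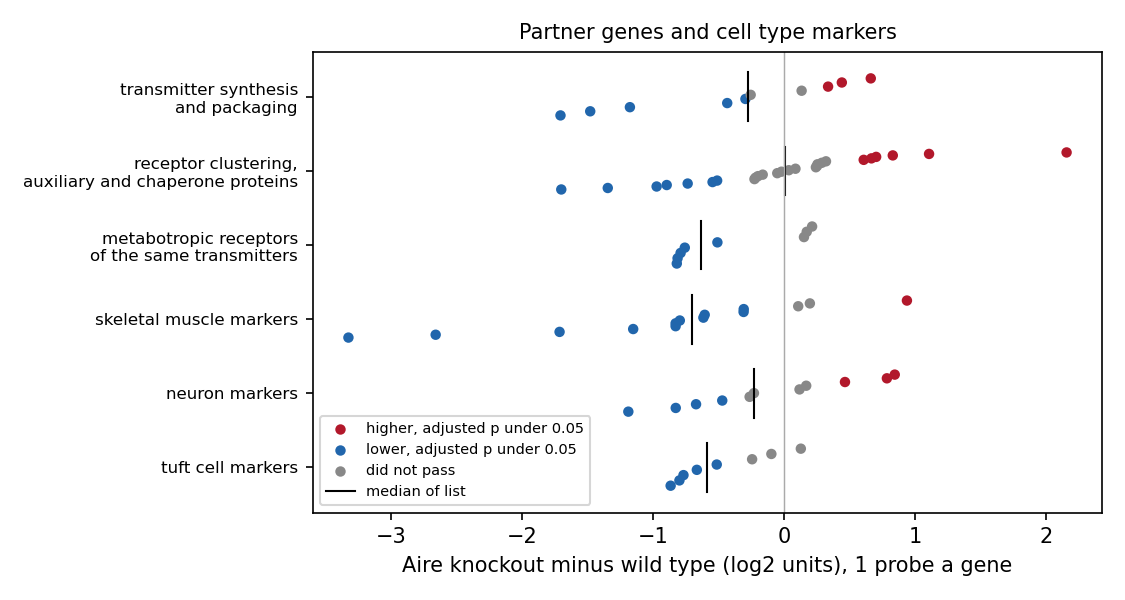
Change of each tested gene, as Aire knockout minus wild type in log2 units, in 3 lists of partner genes and 3 lists of cell type markers, with 1 probe a gene and the median of each list as a bar. Cbln4 is the rightmost point at 2.16, and the muscle markers Myh8 and Myh3 are the leftmost.

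Of 11 tested neuron markers 4 were lower and 3 higher, against 23.1% lower and 18.3% higher of all tested named genes. Nefm, which fell, was above the bound on wild-type arrays alone. The nuclear protein Rbfox3 changed by −1.19 (SE 0.21, limma adjusted p = 0.0016) and the neurofilament Nefh by −0.83 (SE 0.10), and the synaptic vesicle fusion and membrane proteins Snap25 and Syp rose by 0.85 (SE 0.11) and 0.79 (SE 0.14). The summed level of the 14 neuron markers ranged from 105.8 to 107.0 in knockout arrays and from 108.1 to 109.4 in wild-type arrays. Of 8 tested tuft cell markers 5 fell and 0 rose in limma's test (0 higher at an unadjusted p under 0.05), with summed levels of 77.3 to 81.0 in knockout arrays and 80.7 to 84.2 in wild-type arrays. The part of these cell types in the subunit results was not tested.

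Against the same shares of all tested named genes, thymocyte markers fell in 2 of 6 tested cases and dendritic cell and macrophage markers in 2 of 4, and in limma's test 0 of either list rose (0 and 1 higher at an unadjusted p under 0.05). B cell markers rose in 2 of 3 tested cases and fell in 1, and fibroblast and endothelial markers rose in 3 of 8 and fell in 2. The macrophage marker Adgre1 and the B cell marker Cd79a, which fell, were above the bound on wild-type arrays alone. Of the 11 mTEC markers 2 rose and 3 fell, with a median change of 0.09 and summed levels of 132.8 to 134.3 in knockout arrays against 133.7 to 136.1 in wild-type arrays.

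The tested named genes whose values over the 6 arrays most resembled those of Chrnb2 (probe 100520041) were Clmp, Cdh8, Tnfrsf11a, D330023K18Rik and Mgrn1, with Pearson r from 0.9976 to 0.9989. Clmp and Cdh8 encode cell adhesion proteins, and their changes were 1.12 and 1.26. Tnfrsf11a, the receptor RANK that drives mTEC maturation, rose by 0.51. Those most like Chrna1 (probe 5220292) were Sprr2i, Tff2, C1qb, Upk3a and C1qtnf3, with r from 0.9994 to 0.9999. Their changes ranged from −3.78 for Sprr2i, a cornified envelope protein, to −1.24 for Upk3a, a protein of the bladder lining. The 6 arrays share the genotype difference, so r is a description and not a sign of a relation within a genotype.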

How the data were processed

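RNA of 6 mTEC samples was measured on single-colour (Cy3) Illumina bead arrays. The authors deposited normalized log2 values, and BeadStudio and lumi are named per the submitters' processing notes. For background correction, transform and normalization the method is not stated there, so whether the scale is a plain log2 is unknown. Column names in the remaining deposited tables match no sample label, so their 24 columns, detection p-values included, were not used.

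Symbols came from the platform annotation (32782 probes with 1 symbol, 55 with several, treated as unnamed, and 13782 with none). A two-sided test of genotype alone was made with lmFit and eBayes of limma 3.58.1 (R 4.3.3) over all tested probes, and checked on simulated data, with a threshold of 0.05 after Benjamini-Hochberg adjustment. A fold is 2 to the power of the difference. Where a group had no array above the bound, a minimum fold is given, from the lowest signal above it on each array. The number of arrays limits the precision. Every subunit gene with a tested probe was named, along with up to 4 passing genes of each partner, muscle and neuron list with the largest changes. Partner and marker genes were represented by their brightest tested probe. The members and lists were chosen with earlier results of these data known. Alternatives were normalization, filter, background, beadchip, sex, date label, replicate number, variance model, averaging of probes and leaving out each array. Housekeeping scaling (23 genes) was chosen after seeing the data. In that fit adjusted p of the Aire and subunit probes followed the size of the change, whatever a probe's own spread. Its adjusted p-values are therefore not given, and its calls and counts carry this limit.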

Additional observations from a re-analysis of the deposited data

How the results depend on the processing

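All 20 subunit probes that passed kept their direction in each of the 20 alternatives that tested them. The 10 that also passed in every one were probes of Chrna1 (2), Chrnb2 (2), Gabrp (2), Chrna2, Chrna5, Gabrd and Gria1 (100580563). Of the 10 others tested, 5 passed somewhere. Fits within a beadchip have 1 array in one genotype, whose spread is taken from the other arrays. The fit with the date label sets the knockout arrays against 1 wild-type array. Counts of calls in these fits are not read as a dependence on the processing, and the part of array number in them was not tested. The subunit counts of 11 higher and 9 lower became 7 and 5 within beadchip 1, 6 and 6 within beadchip 2, and 7 and 3 among probes above the bound on all 6 arrays. Without a filter 17 fell. The median of 0.26 became 0.00 without a filter, 0.096 with the bound at 2 SD and 0.079 with probes averaged by gene. Over all tested probes, 4043 rose and 3462 fell. With cyclic loess 2347 rose, with probes averaged by gene 2568 rose, and above the bound on all 6 arrays 1895 fell. Within beadchip 1, 514 rose and 1466 fell, within beadchip 2 908 rose and 1711 fell, and with the date label 1659 rose and 2248 fell. Housekeeping scaling left 2261 falls and gave all tested probes a median change of 0.25, against 0.10. Leaving out each array gave 2467 to 4125 rises. Among transmitter genes the 3 rises became 1 with beadchip as a block or the date label, 0 within either beadchip, and 1 to 3 without each array. Their 5 falls became 3 within either beadchip or with housekeeping scaling, and 1 above the bound on all 6 arrays. Clustering genes had 2 rises and 3 falls within beadchip 1, and 3 falls above the bound on all 6 arrays. Metabotropic receptors had 0, 3 and 1 falls within beadchip 1, within beadchip 2 and above the bound on all 6 arrays. Signs turned for genes that did not pass. Grik5 (1710196) had −0.087 with cyclic loess, −0.022 within beadchip 2, −0.122 averaged by gene and −0.001 to 0.079 without each array. Chrnb1 had 0.064 within beadchip 2, 0.113 with the date label, 0.073 with housekeeping scaling and −0.165 to 0.064 without each array. Chrna7 had −0.018 with cyclic loess and −0.018 to 0.199 without each array. Gabra3 had −0.023 with cyclic loess, and Chrna3 had 0.015 with housekeeping scaling. Other causes were not tested.

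Same-numbered arrays of the genotypes deviated together with r of 0.203, −0.06 and −0.016, and arrays of unlike number with r from −0.27 to 0.256. With 3 arrays a genotype these values cannot decide whether the numbers pair samples. With the replicate number as a block 11 subunit probes rose and 8 fell. Signal over background limits the 69 subunit probes left untested.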
